A study of Mus musculus with 18 samples.

Results

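The genes of the mitochondrial respiratory chain and ATP synthase were followed in messenger RNA of the small intestine of C57BL/6 mice. Members were chosen by symbol alone: symbols beginning with mt-Nd, mt-Co, mt-Cytb or mt-Atp for the genes encoded in mitochondrial DNA, and symbols beginning with Nduf, Uqcr, Atp5 or Cox4 to Cox8, with Sdha, Sdhb, Sdhc, Sdhd and Cyc1, for the nuclear genes, without assembly factors that begin with Ndufaf. This gave 99 of 21928 symbols, 13 mitochondrial and 86 nuclear. The nuclear members include Atp5s and Atp5sl, which match by prefix but are not subunits. The 18 libraries fell into 6 groups of 3: male control, male total abdominal irradiation (TAI), male TAI with simvastatin by oral gavage, female control, female TAI and female TAI with a high-fat diet (HFD). The irradiated mice received 12 Gy to the abdomen, tissue was taken at day 21, and the age of the mice was not given in the sources used here. Simvastatin was measured only in males and HFD only in females, so that treatment and sex cannot be told apart, and no group received either treatment without TAI. The comparisons address how TAI, and each treatment after TAI, altered intestinal transcripts in each sex.

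The respiratory chain carries electrons from NADH and succinate to oxygen through complexes I to IV, and complex V uses the resulting proton gradient to make ATP. Complexes I, III, IV and V are built from subunits of 2 genomes, whereas complex II is wholly nuclear. The mitochondrial genes are transcribed as long precursors from the heavy and light strand promoters and cut into single messengers, so that their levels depend on the number of genomes, on transcription and on RNA stability. The nuclear genes lie on many chromosomes and share regulators such as NRF1, GABPA, YY1 and the estrogen-related receptors. In the intestine, absorptive enterocytes are rich in mitochondria and burn fatty acids and glutamine.

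Expression was given as FPKM, a level scaled by transcript length and library depth, added up over the transcripts of a gene. FPKM totals per library lay between 390700 and 417940, read totals are unknown, and 10540 to 11752 genes reached 1 FPKM. The test was limited to genes that reached 1 FPKM in 3 or more libraries, which kept 11767 symbols, all 13 mitochondrial members and 80 of 86 nuclear members. Differences were tested with limma on log2(FPKM + 1), with p adjusted by the Benjamini-Hochberg method over all genes tested, and a gene was called at an adjusted p under 0.05. All log2 changes below are on that scale, which understates the change of low genes. Nothing in the labels says more of the 3 samples of a group than a replicate number, so p values measure the spread between these samples. In bulk tissue, fewer cells of a type and less RNA per cell cannot be told apart.

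The 13 mitochondrial genes held a large share of all transcript signal. Their summed FPKM ran from 58608 to 105740, or 14.3% to 25.3% of the library total with a median of 18.6%. The 86 nuclear members summed to 8341 to 11053 FPKM, or 2.12% to 2.75%. The ratio of the mitochondrial to the nuclear sum ranged from 5.35 to 10.4. In female controls the mitochondrial share was 16.2%, 18.2% and 21.1%, in female TAI 21.6%, 19.4% and 16.8%, and in female TAI with HFD 14.4%, 14.3% and 17.1%. In male controls it was 20.1%, 19.1% and 25.3%, in male TAI 20.4%, 18.9% and 17.3%, and with simvastatin 19.2%, 16.3% and 18.2%. The 3 female groups overlapped with each other, as did the 3 male groups. The lowest mean was in HFD-fed females (15.3% ± 1.60, SD, n = 3) and the highest in male controls (21.5% ± 3.33, SD, n = 3), where replicate 3 stood above every other library.

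**Figure D1:**
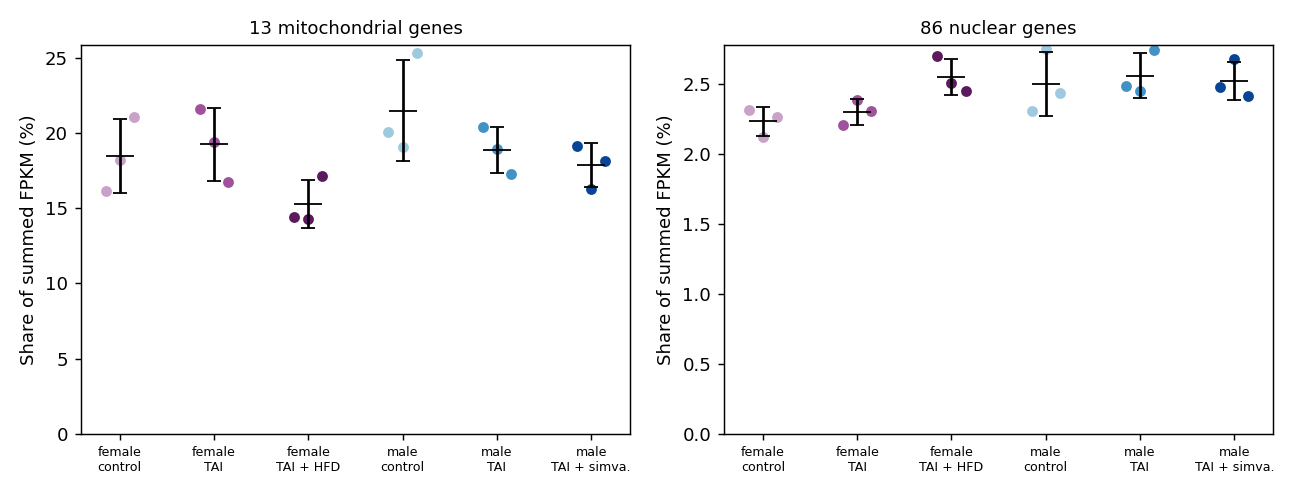
Share of each library's summed FPKM (y axes, percent, from 0) held by the 13 mitochondrial genes (left) and the 86 nuclear genes (right) in the 6 groups; points are libraries, and bars are the mean with 1 SD. The mitochondrial share of the HFD group lies at 14.3% to 17.1%, and its nuclear share at 2.45% to 2.70%, above all 3 female controls (2.12% to 2.32%).

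Among the mitochondrial genes the order of levels was nearly fixed. mt-Co1, the catalytic subunit of complex IV, was highest in all 18 libraries (12388 to 21180 FPKM), mt-Atp6, the proton channel subunit of complex V, was next in all of them (6801 to 13082 FPKM), and mt-Nd6 was lowest in all 18 (589 to 1035 FPKM). mt-Nd6, a membrane subunit of complex I, is the only member annotated on the minus, or light, strand, and the other 12 lie on the plus strand. The middle of the order held mt-Co2, mt-Cytb (the catalytic core of complex III), mt-Atp8, mt-Co3 and mt-Nd1, whose medians of 6167 to 7489 FPKM lay within the range of each other's libraries. mt-Nd4l, mt-Nd5, mt-Nd2 and mt-Nd3 followed at medians of 2435 to 2827 FPKM and changed places from library to library. mt-Atp8 overlaps mt-Atp6, and mt-Nd4l overlaps mt-Nd4, and the handling of strand and of shared reads was not given in the sources used here, so the split within each pair is uncertain. Between the lowest and the highest library a mitochondrial gene varied 1.71-fold to 2.45-fold. For 12 of the 13 genes the highest library was male control replicate 3, the exception being mt-Nd6.

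**Figure D2:**
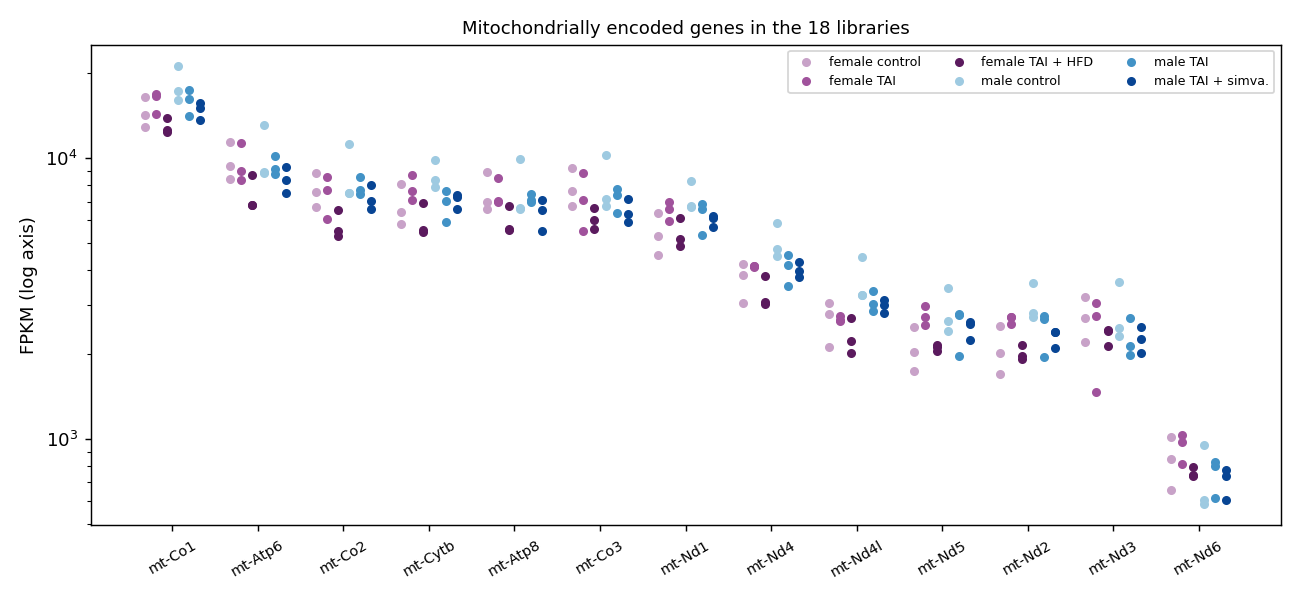
FPKM (log axis) of the 13 mitochondrial genes, ordered by median, with 1 point per library coloured by group. mt-Co1 lies highest and mt-Nd6 lowest in all 18 libraries, and male control replicate 3 is the highest point for 12 of the 13 genes.

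The nuclear members spanned a wider range of levels. Atp5b (601 to 766 FPKM) and Atp5a1 (362 to 504 FPKM), the beta and alpha subunits of the catalytic head of complex V, had the highest medians, followed by Cox4i1, a core-associated subunit of complex IV (236 to 474 FPKM). Cox4i1 was low in HFD replicate 2 (280 FPKM) and in simvastatin replicate 2 (236 FPKM) and at least 331 FPKM elsewhere. The highest members of the other complexes were Uqcrh, the hinge protein of complex III (241 to 337 FPKM), Sdhd, a membrane anchor of complex II (144 to 214 FPKM), and Ndufb9, an accessory subunit of complex I (148 to 187 FPKM). Sdha, the flavoprotein that oxidises succinate in complex II, was at 134 to 175 FPKM. Ndufs3, a core subunit of complex I, was listed at 0 in 6 of the 18 libraries (female TAI replicates 2 and 3, HFD replicate 3, male TAI replicate 1, and simvastatin replicates 2 and 3) and at 16.2 to 27.2 FPKM in the others. Such a 0 can be a failed estimate, and no change of Ndufs3 is described.

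Of subunits with tissue-specific forms, most muscle or restricted forms were near 0. Cox4i2, Cox6a2, Cox8b and Ndufa4l2 stayed under 1 FPKM in every library, and Cox7b2 and Cox8c were listed at 0 in all 18, and these 6 were not tested. Cox6b2, known as the testis form of subunit 6b, was at 1.70 to 5.72 FPKM. Well above these stood Cox7a1, known as the heart and skeletal muscle form of complex IV subunit 7a, at 86.4 to 169.5 FPKM. Its partners are Cox7a2, the form of most tissues, at 131 to 199 FPKM, and Cox7a2l at 63.4 to 93.8 FPKM.

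The widest shift between the genomes over the 7 group comparisons was that of HFD-fed irradiated females against female TAI. In it, 72 of 80 nuclear members had a higher mean with HFD and 12 of 13 mitochondrial members a lower one. The median log2 change was 0.17 for the nuclear members and −0.32 for the mitochondrial members, beside −0.01 for all genes tested. The mean log2 level of the mitochondrial members was 0.30 lower (standard error 0.11) and that of the nuclear members 0.19 higher (standard error 0.06), so that the distance between them was 0.49 smaller (standard error 0.16, n = 3 in each group). With the library scaled on nuclear genes alone, which takes the mitochondrial transcripts out of the total, the nuclear median fell to 0.08 and the mitochondrial median to −0.41, with all genes tested at −0.08. Both medians kept their sign under each of the other scalings. The groups did not overlap for 25 nuclear members, all higher with HFD (7.56% of all genes tested), and for 7 mitochondrial members, all lower with HFD (9.94% of all genes tested).

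Of these members 1 passed the test: Cox7a1 rose, and it did so under every alternative tried. Across all genes tested 1.74% were called higher and 1.42% lower. The higher calls were 55.1% of all calls, and 28.4% under nuclear gene scaling. Cox7a1 was at 169.5, 156 and 155 FPKM with HFD, at 86.4, 98.8 and 92.7 FPKM in female TAI and at 114, 114 and 124 FPKM in female controls. The 3 HFD libraries lay above all other libraries of the study, the male ones included. The log2 change against TAI was 0.78 (standard error 0.11, adjusted p = 0.000777 from limma), and against control 0.45 (standard error 0.11, adjusted p = 0.0268 from limma), a call lost without any 1 of the 6 libraries compared and under the 3 other scalings. The ratio of Cox7a1 to Cox7a2 was 0.857 to 0.922 with HFD, 0.572 to 0.706 in female TAI and 0.690 to 0.792 in female controls, so that the HFD libraries lay above the rest. The 9 striated muscle markers, of which 2 reached the level for testing, summed to 3.82 to 6.67 FPKM with HFD and to 5.15 to 6.40 FPKM in female TAI. In female controls they summed to 4.05 to 7.68 FPKM. The muscle creatine kinase gene Ckm was at 0.652 to 0.982 FPKM with HFD, and Ucp1, which marks brown fat, was listed at 0 in the 3 HFD libraries. The part of muscle or brown fat in the Cox7a1 values was not tested. Cox7a2 itself had a log2 change of 0.29 against TAI (adjusted p = 0.25 from limma). Ndufa4, a complex IV subunit first assigned to complex I, stood at 198, 195 and 136 FPKM with HFD and at 110, 113 and 118 FPKM in female TAI. Its log2 change of 0.61 did not pass (adjusted p = 0.0702 from limma), but passed without HFD replicate 3 (adjusted p = 0.0265 from limma). Leaving out replicate 2 or replicate 3 of the male controls also brought it past the threshold (adjusted p = 0.0306 and 0.0382 from limma), and each of these 3 settings gave 2 calls in place of 1.

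No mitochondrial gene passed in this comparison, and 4 had an unadjusted p under 0.05, all lower with HFD, as had 19 nuclear members, all higher (15% of all genes tested, either direction). mt-Nd2, a membrane subunit of complex I, was at 1975, 1927 and 2163 FPKM with HFD and at 2565, 2725 and 2720 FPKM in female TAI, with no overlap (log2 change −0.40, standard error 0.16, adjusted p = 0.232 from limma). mt-Cytb was at 5539, 5441 and 6932 FPKM with HFD and at 8711, 7663 and 7103 FPKM in female TAI (log2 change −0.39, standard error 0.16, adjusted p = 0.258 from limma). mt-Nd3 was the exception, with a log2 change of 0.01, and its female TAI replicate 3 (1475 FPKM) was the lowest of all libraries. By complex, the median changes of the mitochondrial genes were −0.31 for complex I, −0.30 for complex IV and −0.34 for complex V, and those of the nuclear genes 0.16, 0.14, 0.12, 0.22 and 0.22 for complexes I to V.

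Against female controls, HFD was higher in 78 of 80 nuclear members and lower in 11 of 13 mitochondrial members. The median log2 change was 0.23 for the nuclear members and −0.18 for the mitochondrial members, but that of all genes tested was 0.10 here. For 57 nuclear members the HFD and control groups did not overlap, all higher with HFD, beside 29.2% of all genes tested, and for 2 mitochondrial members they did not overlap, both lower, beside 10.8%. Under median ratio scaling, which brought the median of all genes to −0.01, the nuclear median was 0.10 and the mitochondrial median −0.31. Unadjusted p was under 0.05 for 39 nuclear members, all higher, and for 1 mitochondrial member, mt-Co2, which was lower (25.9% of all genes tested, either direction).

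Cox7a1, Ndufb7, Ndufa10 and Uqcr11 rose with HFD against control, 4 of 80 nuclear members, where 2.91% of all genes tested were called higher and 1.67% lower. Ndufb7, an accessory subunit of complex I, was at 72.0, 69.4 and 63.0 FPKM with HFD and at 52.5, 48.8 and 53.2 FPKM in controls (log2 change 0.40, standard error 0.08, adjusted p = 0.0134 from limma). Ndufa10, also an accessory subunit of complex I, was at 49.0, 47.1 and 42.2 FPKM against 33.0, 34.7 and 35.8 FPKM (log2 change 0.40, standard error 0.10, adjusted p = 0.0302 from limma). Uqcr11, the smallest subunit of complex III, was at 128, 112 and 111 FPKM against 85.7, 83.5 and 91.8 FPKM (log2 change 0.43, standard error 0.10, adjusted p = 0.0293 from limma). The HFD and control libraries did not overlap for any of the 4. For the last 3, female TAI without HFD already lay above control, at 54.8 to 67.5 FPKM for Ndufb7, 39.0 to 52.3 FPKM for Ndufa10 and 102 to 119 FPKM for Uqcr11. The count depended on the libraries: it was 0 without HFD replicate 1 or 2, 2 without HFD replicate 3, 1 without any of the 3 female controls (0.918% to 2.49% of all genes called higher over these 6 settings), and 10 without female TAI replicate 1 or 3, where 5.84% and 11% of all genes tested were called higher. It was 0 under median ratio scaling (2.5% of all genes called higher), 27 with the compared groups fitted alone (12.6%) and 26 with each group weighted by its own spread (15.1%). Of all genes called in this comparison, 63.5% were higher with HFD, and 43.5%, 40.5% and 37.6% under median ratio, nuclear gene and quantile scaling.

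**Figure D3:**
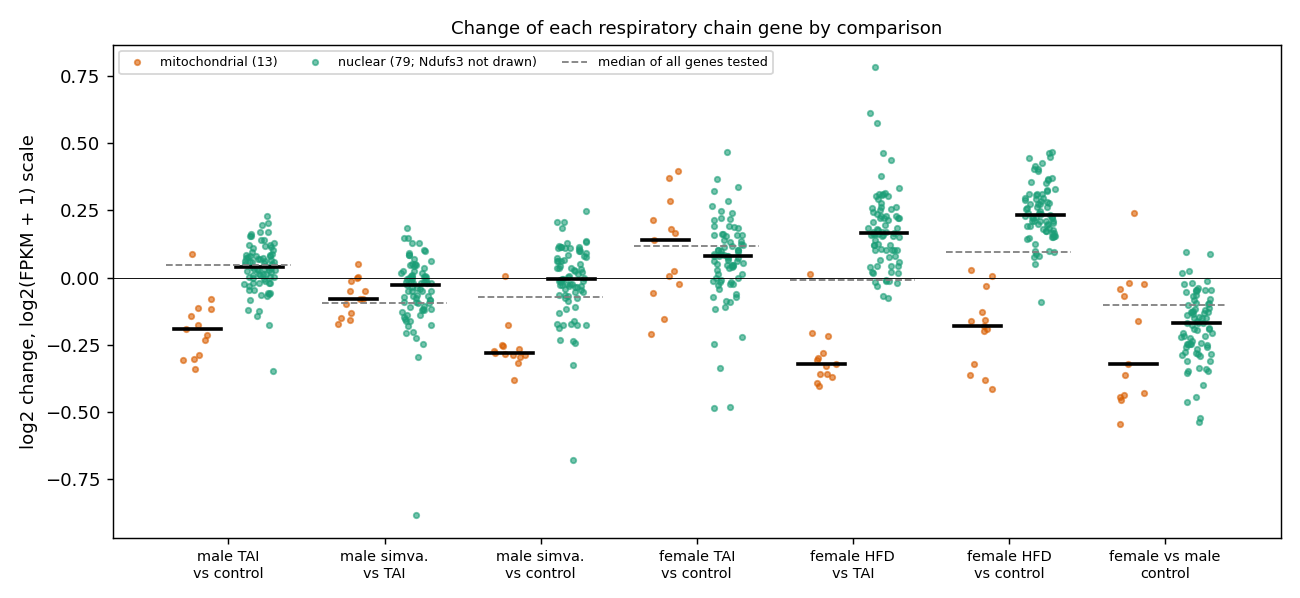
Log2 change on the log2(FPKM + 1) scale (y axis) of each mitochondrial gene (orange) and each tested nuclear gene but Ndufs3 (green) in 7 comparisons; black bars are medians and dashed grey lines the median of all genes tested. In the HFD comparisons the nuclear genes lie mostly above 0 and above the grey line and the mitochondrial genes mostly below both.

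The start regions of these 4 genes are shown because each was called higher with HFD against control, though Cox7a1 differed from the others in TAI. They are given as RefSeq holds them for GRCm38.p6, and the build behind the FPKM was not given in the sources used here. Each line holds the 250 bases before the annotated start, 5′ to 3′ on the strand of the gene, at chr7:30183921-30184170 (plus strand) for Cox7a1, chr8:83566508-83566757 (plus strand) for Ndufb7, chr1:92473759-92474008 (minus strand) for Ndufa10 and chr10:80406822-80407071 (minus strand) for Uqcr11. Capitals mark a match to any of 4 motifs searched on both strands: CGCATGCG (NRF1), CCGGAAGT (GABPA), AAGATGGC (YY1) and TCAAGGTCA (estrogen-related receptors).
Cox7a1: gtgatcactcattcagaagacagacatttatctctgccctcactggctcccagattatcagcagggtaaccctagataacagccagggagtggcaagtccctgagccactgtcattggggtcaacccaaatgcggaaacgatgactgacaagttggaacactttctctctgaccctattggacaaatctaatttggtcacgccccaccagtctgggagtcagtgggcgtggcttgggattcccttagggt
Ndufb7: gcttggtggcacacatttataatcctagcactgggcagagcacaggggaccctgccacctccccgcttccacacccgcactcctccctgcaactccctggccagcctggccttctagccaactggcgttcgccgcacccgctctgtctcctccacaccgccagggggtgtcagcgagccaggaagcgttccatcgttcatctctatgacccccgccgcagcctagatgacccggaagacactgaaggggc
Ndufa10: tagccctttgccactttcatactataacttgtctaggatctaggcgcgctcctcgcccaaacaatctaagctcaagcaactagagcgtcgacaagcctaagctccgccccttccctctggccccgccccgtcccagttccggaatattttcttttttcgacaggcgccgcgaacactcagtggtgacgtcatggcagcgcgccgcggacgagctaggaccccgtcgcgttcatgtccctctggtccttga
Uqcr11: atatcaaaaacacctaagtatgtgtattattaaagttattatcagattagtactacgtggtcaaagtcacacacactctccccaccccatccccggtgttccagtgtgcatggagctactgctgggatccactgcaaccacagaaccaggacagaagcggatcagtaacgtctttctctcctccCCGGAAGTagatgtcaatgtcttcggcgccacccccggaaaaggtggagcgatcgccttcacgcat
Uqcr11 held a GABPA match from −66 to −59 relative to the start, and an NRF1 match that spans the start lies partly outside the printed bases. The printed bases of the other 3 held none of the 4 letter runs. Over whole windows, which run 50 bases past the start, 65 of the 80 tested nuclear members matched an entry by symbol, and 23 of them (35.4%) held at least 1 motif, beside 18.1% of the 9175 tested genes with an entry. NRF1 letters were in 13.8% against 4.39%, YY1 letters in 13.8% against 5.44% and GABPA letters in 7.69% against 9.42%. Estrogen-related receptor letters were in 3.08% against 0.32%, but these were only 2 of 65 members and 29 of 9175 genes. These are counts of letter matches and say nothing of binding.

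Some genes that feed electrons to the chain or move its substrates rose with HFD. Of 25 tested carriers and electron donors, 5 were called higher against TAI (1.74% of all genes tested) and 5 against control (2.91%), and none lower. Of those against TAI, Etfdh and Coq10b each lost the call under 11 of the alternatives. Etfb, a subunit of the flavoprotein that passes electrons from fatty acid oxidation to ubiquinone, was at 110, 117 and 101 FPKM with HFD, at 76.9, 75.6 and 67.4 FPKM in female TAI and at 65.6, 68.6 and 66.7 FPKM in controls. Its log2 change was 0.57 against TAI (adjusted p = 0.0017 from limma, 0.0752 with the compared groups fitted alone) and 0.69 against control (adjusted p = 0.000337 from limma). Its partner Etfa rose by 0.59 against TAI (adjusted p = 0.00444 from limma, 0.072 with the compared groups fitted alone) and by 0.42 against control (adjusted p = 0.0302 from limma), the latter call being lost without any 1 of the 6 libraries compared and under the 3 other scalings. Slc25a20, the carnitine-acylcarnitine carrier of the inner membrane, rose by 0.64 against TAI (adjusted p = 0.0144 from limma, lost without HFD replicate 1 or 2, under median ratio scaling, with the compared groups fitted alone and with weighted groups) and by 0.68 against control (adjusted p = 0.00827 from limma, lost without HFD replicate 1 and under median ratio scaling). Ucp2, an inner membrane carrier, rose by 0.80 against control (adjusted p = 0.00431 from limma). Of the citric acid cycle 1 of 18 tested genes was called higher against TAI and none against control. Of 78 tested proteins of the mitochondrial ribosome 61 had a positive change against TAI (48.1% of all genes tested) and none passed. All 78 had one against control (median 0.32, 66.3% of all genes tested positive), of which 1 passed, Mrpl54. In female TAI without HFD, 75 of the 78 already had a positive change against control (median 0.25). Of 37 tested genes of mitochondrial DNA transcription and RNA maintenance none passed in either HFD comparison, with medians of 0.09 against TAI and 0.31 against control. Their median was already 0.22 in female TAI without HFD against control.

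Markers of several cell types differed in the same libraries. Of 10 enterocyte markers 4 were called higher and 1 lower with HFD against TAI (median log2 change 0.40), and their summed level was 32648 to 35133 FPKM with HFD and 20771 to 25333 FPKM with TAI. All 8 smooth muscle markers had a lower mean with HFD against TAI (median −0.54, 1 called), with summed levels of 259 to 296 FPKM against 283 to 512 FPKM. All 4 tested fat markers were lower (median −1.95, 3 called), with summed levels of 4.27 to 5.60 FPKM against 33.8 to 99.99 FPKM. Against control, all 6 Paneth cell markers had a higher mean with HFD (median 3.08, 4 called). All 6 were already higher in TAI alone against control (median 2.51, none called). For HFD against TAI their median was 0.38, with none called. All 6 tested crypt stem and dividing cell markers had a higher mean with HFD against TAI (median 0.48) and against control (median 1.13, 1 called). Across all genes tested 1.74% were called higher and 1.42% lower against TAI, and 2.91% and 1.67% against control. The part of these cell types in the respiratory chain results was not tested.

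Female controls lay below male controls for most members of both genomes. The mean was lower in females for 76 of 80 nuclear members (median log2 difference −0.17) and for 12 of 13 mitochondrial members (median −0.32), while the median of all genes tested was −0.10. The distance between the mitochondrial and the nuclear mean log2 level differed by −0.05 (standard error 0.22), and by −0.205 to 0.0942 over the alternatives. Under median ratio scaling, which put the median of all genes at −0.02, the medians were −0.08 and −0.22, and 58 of 80 and 8 of 13 members were lower. Non-overlap held for 27 nuclear and 4 mitochondrial members, all lower in females, beside 17.7% of all genes tested lower and 8.15% higher. Unadjusted p was under 0.05 for 28 nuclear and 6 mitochondrial members, all lower in females (20.2% of all genes tested, either direction). The mean log2 level of the mitochondrial members was 11.85, 12.08 and 12.33 in female and 12.18, 12.16 and 12.64 in male controls, with overlap. Male control replicate 3 was the highest library for 12 of 13 mitochondrial genes, so their lower values in females rest in part on that 1 library. All 8 smooth muscle, 9 leukocyte and 6 Paneth cell markers also had a lower mean in female controls, with no call. Of 10 enterocyte markers 9 had a higher mean in female controls (median 0.20, 2 called higher), with summed levels of 28486 to 30101 FPKM against 21363 to 23882 FPKM in male controls. The part of these cell types was not tested.

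Of the nuclear members 6 were called lower in female controls, where 3.02% of all genes tested were called lower and 2.12% higher, and 5 of them are described here. Ndufs8, a core iron-sulfur subunit, was at 27.9, 26.3 and 27.4 FPKM in female and at 35.6, 45.9 and 37.5 FPKM in male controls (log2 difference −0.52, standard error 0.13, adjusted p = 0.0301 from limma). Ndufv3, an accessory subunit, was at 41.7, 34.8 and 40.5 FPKM against 53.5, 57.2 and 60.2 FPKM (log2 difference −0.54, standard error 0.13, adjusted p = 0.0228 from limma). Ndufa10, named above, was at 33.0 to 35.8 FPKM against 43.3 to 51.1 FPKM (log2 difference −0.46, standard error 0.10, adjusted p = 0.0136 from limma). Uqcr11 (log2 difference −0.45, adjusted p = 0.0214 from limma) and Atp5a1 (log2 difference −0.28, adjusted p = 0.0486 from limma) were also lower. None of these 5 overlapped between the sexes. The count was 0 without female control replicate 1 (1.07% of all genes tested called lower) and without male control replicate 2 or 3 (1.29% and 1.84%). It was 1 without female control replicate 2 (3.24%) and 3 without female control replicate 3 (1.01%). Under median ratio scaling it was 2 (1.71% of all genes tested called lower), and with the compared groups fitted alone 3 (1.35%). Of all genes called in this comparison, 41.2% were higher in females, and 61.6%, 26.5% and 59.9% under median ratio, nuclear gene and quantile scaling. The same female controls are the reference of the TAI and HFD comparisons above, so that Ndufa10 and Uqcr11, called low here and high there, rest on shared libraries.

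**Figure D4:**
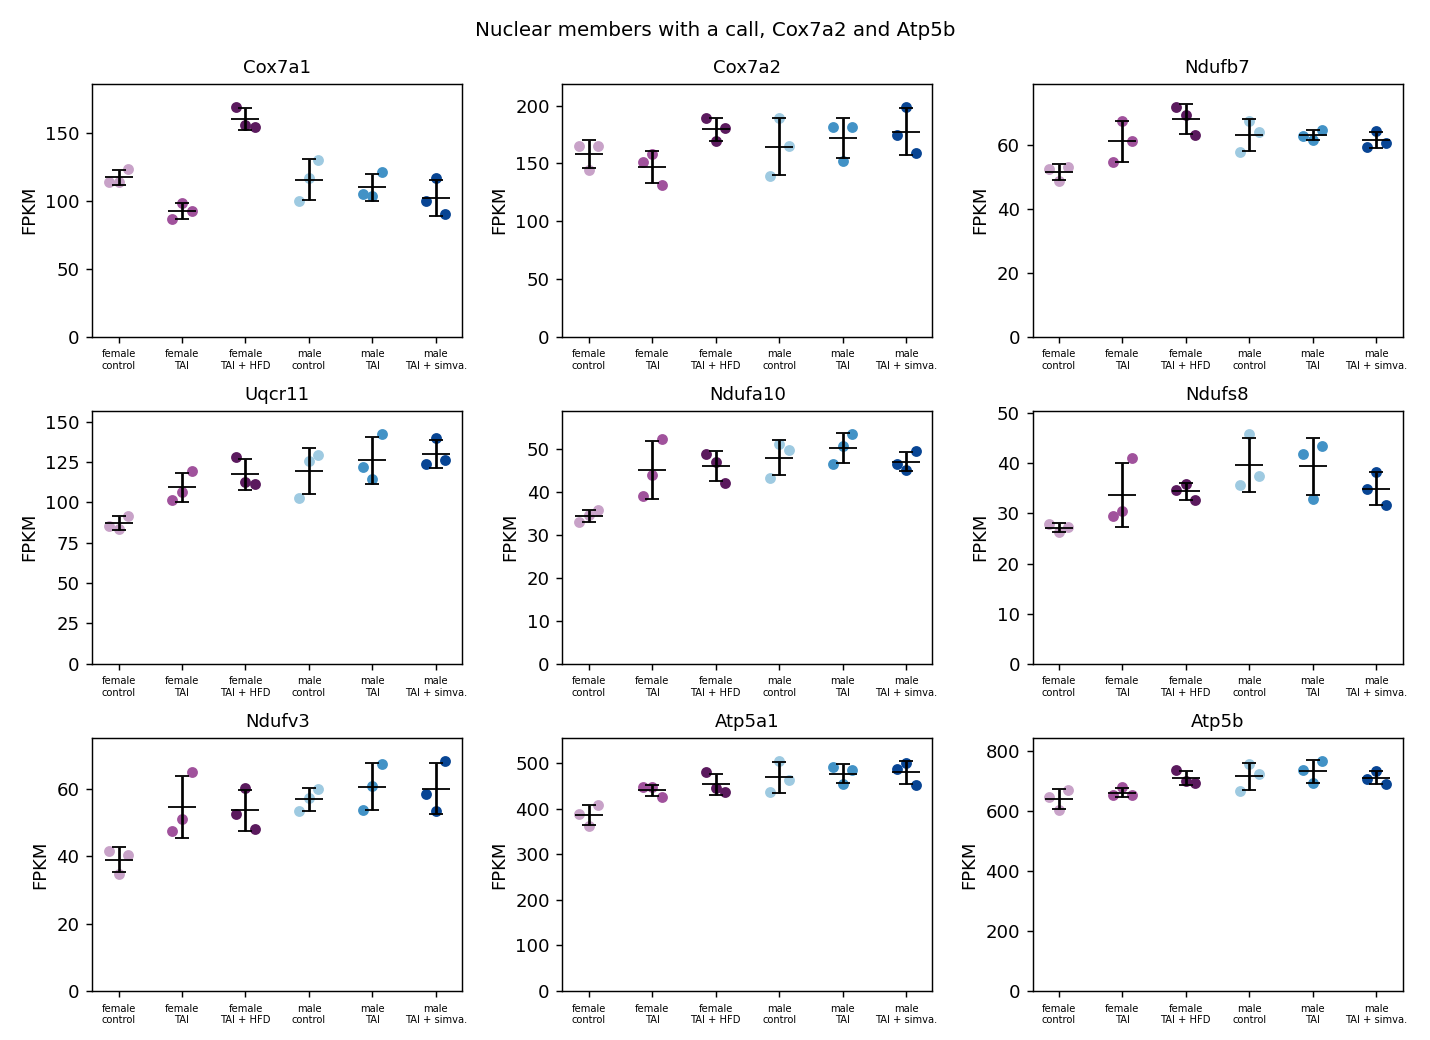
FPKM (y axes from 0) of 7 nuclear members with a call, of Cox7a2, the partner of Cox7a1, and of Atp5b, the highest nuclear member, in the 6 groups; points are libraries and bars are the mean with 1 SD. Cox7a1 is highest in the 3 HFD libraries (155 to 169.5 FPKM), and the female controls are the lowest group for Ndufb7, Uqcr11, Ndufa10, Ndufs8, Ndufv3 and Atp5a1.

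No mitochondrial gene passed between the sexes, and their proportions are described here. mt-Nd2 was at 1706, 2026 and 2533 FPKM in female controls and at 2804, 2710 and 3588 FPKM in male controls (log2 difference −0.55, standard error 0.16, adjusted p = 0.0595 from limma), and mt-Nd1, mt-Nd4 and mt-Nd4l also did not overlap. mt-Nd6, the light strand gene, ran the other way, at 658, 847 and 1015 FPKM in female and 607, 589 and 955 FPKM in male controls (log2 difference 0.24), with overlap. The ratio of mt-Nd6 to mt-Nd5, its neighbour on the opposite strand, was examined after the values had been seen and is given with no test. It was 0.375, 0.415 and 0.407 in female controls and 0.232, 0.243 and 0.277 in male controls. In irradiated mice it was 0.408, 0.329 and 0.300 in female TAI, 0.372, 0.361 and 0.341 with HFD, 0.291, 0.297 and 0.312 in male TAI and 0.282, 0.269 and 0.302 with simvastatin. Of 9 female libraries 8 lay above all 9 male libraries, and female TAI replicate 3 lay below 2 of them. The treatments in these libraries differ by sex. mt-Nd6 also overlaps mt-Nd5 by position, so the unknown handling of strand bears on this ratio. Pairs on the same strand split the controls too. The ratio of mt-Co3 to mt-Nd5 was 3.68 to 3.86 in female and 2.58 to 2.98 in male controls. That of mt-Nd3 to mt-Nd2 was 1.27 to 1.33 and 0.831 to 1.01. The ratios of mt-Atp8 to mt-Atp6 and of mt-Nd4l to mt-Nd4 overlapped between the controls. After TAI alone the sexes overlapped for mt-Co3 to mt-Nd5 (2.02 to 3.49 in female and 2.29 to 3.75 in male TAI). They also did for mt-Nd3 to mt-Nd2 (0.542 to 1.19 and 0.779 to 1.01).

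**Figure D5:**
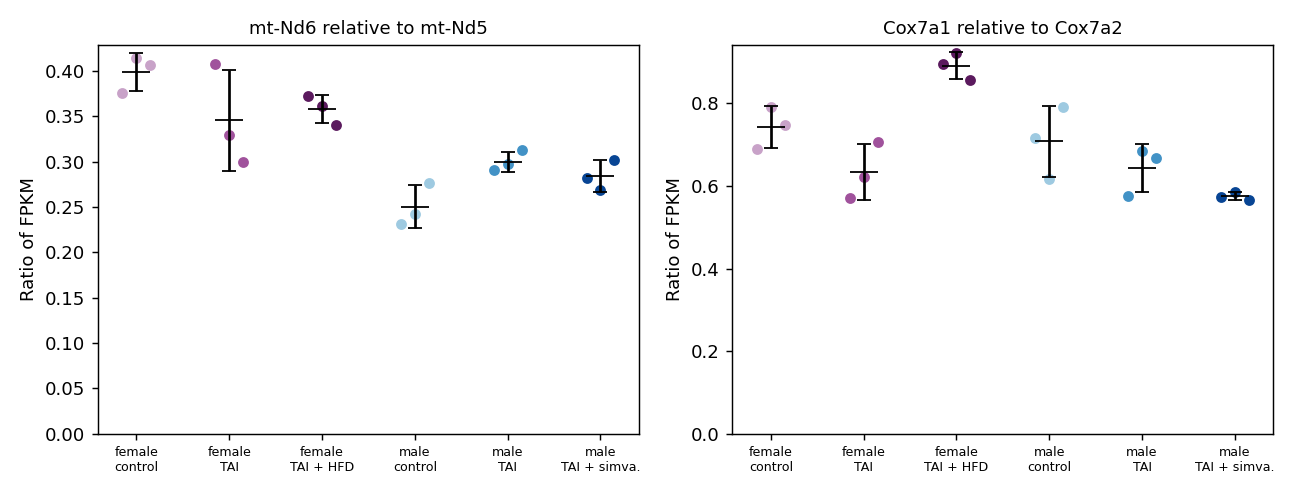
Ratio of FPKM (y axes from 0) of mt-Nd6 to mt-Nd5 (left) and of Cox7a1 to Cox7a2 (right) in the 6 groups; points are libraries and bars are the mean with 1 SD. The left ratio is 0.300 to 0.415 in female and 0.232 to 0.312 in male libraries, and the right one is highest with HFD (0.857 to 0.922).

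No member passed the test after TAI alone in either sex. In females 0.416% of all genes tested were called higher and 0.34% lower. Unadjusted p was under 0.05 for 9 nuclear members that were higher and 3 that were lower, and for 2 mitochondrial members that were higher (17.2% of all genes tested, either direction). The smallest adjusted p values were those of Ndufa10 (log2 change 0.37) and Ndufv3 (log2 change 0.47), both 0.109 from limma. Cox7a1 (log2 change −0.34, adjusted p = 0.162 from limma) and Ndufa4 (log2 change −0.49, adjusted p = 0.195 from limma) had negative values. Without female TAI replicate 1, 5 of 80 nuclear members passed, all higher after TAI (Cox5b, Cox8a, Ndufa10, Ndufb7 and Ndufv3), and 7.66% of all genes tested were then called higher. The median log2 change was 0.08 for nuclear and 0.14 for mitochondrial members, beside 0.12 for all genes, and turned negative for both (−0.06 and −0.002) under median ratio scaling.

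In males no member passed after TAI, where 1.2% of all genes tested were called higher and 0.901% lower, and none had an unadjusted p under 0.05 (12.1% of all genes tested, either direction). The mitochondrial median was −0.19 and the nuclear median 0.04, and the distance between the mean log2 levels changed by −0.20 (standard error 0.23). The mean log2 level of the mitochondrial members was 12.28, 12.15 and 11.99 in male TAI and 12.18, 12.16 and 12.64 in male controls. The lower mitochondrial values after TAI thus rest largely on male control replicate 3. The nuclear median took a negative sign under the other 3 scalings, at −0.02 or closer to 0. For the TAI change in females minus that in males no member passed (0.501% of all genes tested higher, 0.833% lower). Unadjusted p was under 0.05 for 5 mitochondrial members and 1 nuclear member, all with a higher value in females (10.7% of all genes tested, either direction). The largest of these was mt-Nd2, with a difference of 0.68 (standard error 0.22, adjusted p = 0.2 from limma).

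Simvastatin after TAI was called for no member against TAI alone, where 0.0765% of all genes tested were called higher and 0.62% lower, nor against control, where 2.74% were called higher and 2.63% lower. Against TAI, 2 nuclear members had an unadjusted p under 0.05, both lower (14.9% of all genes tested, either direction). Against control, 1 nuclear and 1 mitochondrial member had one, both lower (17.9%). Ndufa12, an accessory subunit of complex I, was at 19.3, 38.2 and 15.7 FPKM with simvastatin, at 41.6, 33.0 and 57.0 FPKM in male TAI and at 39.6, 42.4 and 30.1 FPKM in male controls. Without simvastatin replicate 2, the high one, it passed against TAI (log2 change −1.25, adjusted p = 0.028 from limma) and against control (log2 change −1.04, adjusted p = 0.0223 from limma). In that setting 0.527% and 2.1% of all genes tested were called lower. It keeps only the 2 low libraries, so it cannot show a change of Ndufa12 in the group. The median log2 change against TAI was −0.08 for mitochondrial and −0.03 for nuclear members, beside −0.09 for all genes, and both signs turned under median ratio scaling (0.05 and 0.09). Against control the mitochondrial median was −0.28 under the deposited scaling and −0.21 under median ratio scaling, while the nuclear median was −0.01 and 0.06. The mitochondrial mean log2 level was 12.17, 11.95 and 12.08 with simvastatin, so this difference too rests in part on male control replicate 3 (12.64).

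Within groups, members of a genome varied together. After each gene's group mean was taken off, the median correlation over the 18 libraries was 0.81 between 2 mitochondrial genes (78 pairs, all positive), 0.49 between 2 nuclear members (3160 pairs, 89.8% positive) and −0.17 between a mitochondrial and a nuclear member (1040 pairs, 27.1% positive). All values of a library share 1 total, of which the mitochondrial genes hold a large share, and these correlations are given as a description. The genes outside the set whose log2 profile over the 18 libraries was most like the mean of the mitochondrial members were Zdhhc7 (Pearson r 0.79), Cx3cl1 (0.78), 9130230L23Rik (0.78) and Triobp (0.77). For the mean of the nuclear members they were Psmb5 (0.86), Idh3g (0.85), Prdx3 (0.85) and Psmd8 (0.84).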

How the data were processed

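Small intestine mRNA was analysed in 18 libraries, 3 per group, with groups taken from the sample labels. The authors deposited FPKM per transcript and library. Per the submitters' processing notes, Bowtie2 2.2.8, Cuffdiff 2.1.1, HISAT2 and StringTie 1.3.1 were used; the role of each and the genome build were not given in the sources used here. Because FPKM hold no read totals, precision cannot be derived from counts and no count test was made. The 55869 transcripts were summed to 21928 symbols. Genes that reached 1 FPKM in 3 or more libraries were tested with limma 3.58.1 in R 4.3.3 on log2(FPKM + 1), with 1 mean per group, a variance trend on mean level, 12 residual degrees of freedom, and p adjusted by the Benjamini-Hochberg method (threshold 0.05). The model was tested on simulated data.

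Members, lists and tests were chosen with earlier results of these data known. Named were all mitochondrial members, isoform pairs, in each complex the highest nuclear member and up to 6 with the smallest p, up to 4 genes of a pathway list and the genes most alike in profile; others named were chosen after their values were seen. Alternatives were another pseudocount (0.1), no filter, 3 scalings, other variance models, a replicate block, the highest transcript and each library left out. Leaving out Ndufs3 was added after the data were seen. The values of 1 member with a call are not reported here.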

Additional observations from a re-analysis of the deposited data

How the results depend on the processing

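The distance between the mitochondrial and the nuclear mean log2 level moved by less than the spread within groups (SD 0.235) under every alternative run for it, Ndufs3 left out among them. It stayed between −0.62 and −0.40 for HFD against TAI and between −0.55 and −0.30 for HFD against control. In every other comparison the change of distance was itself smaller than that SD, so this rule could not show its loss or a turn of sign. It ran from −0.356 to −0.0411 for male TAI against control and from −0.361 to −0.0622 for simvastatin against control. The sign turned for female against male control (−0.205 to 0.0942), female TAI against control (−0.0601 to 0.171) and simvastatin against TAI (−0.151 to 0.103). Counts of members called moved as well. For HFD against control, 4 members were called, 0 under median ratio scaling, 27 with the compared groups fitted alone, 26 with groups weighted by their own spread, and 0 to 10 with 1 library left out. For female against male control, 6 were called, 2 under median ratio scaling, 3 with the compared groups fitted alone, and 0 to 9 with 1 library left out. In the settings with 1 library left out, 1.01% to 5.12% of all genes tested were called lower. For HFD against TAI, 1 was called, 3 under quantile normalization (mt-Co2 and mt-Nd1 were added, both lower) and 1 to 2 with 1 library left out. The counts of 0 for female TAI against control and for simvastatin against TAI and against control became 0 to 5, 0 to 1 and 0 to 1 with 1 library left out. The share of higher calls among all genes called also moved with scaling: from 55.1% to 32.4% (median ratio) and 33.3% (quantile) for female TAI against control, from 57.1% to 46.7% (quantile) for male TAI against control, from 51.1% to 67.1%, 63.1% and 35.4% (nuclear gene scaling) for simvastatin against control, and from 11% to 23.8% and 28.9% for simvastatin against TAI. Causes beyond fewer samples or another estimate of the spread were not tested.

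Of 21 same-numbered pairs over the comparisons, 11 deviated together with a correlation above 0.1 (range −0.459 to 0.322) and 11 correlated best with their own number, the 7 pairs of replicate 1 among these 11, a hint from the data and not from the design. No comparison had all 3 pairs above 0.1, so the numbers were not taken to pair the samples. With the replicate block, 2 members were called for HFD against TAI (Ndufa4 was added), 6 for HFD against control and 5 for female against male control, and none elsewhere. Read depth is unknown, so that what depth limits cannot be stated.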
